A study of Mus musculus with 7 samples.

Results

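Detoxification enzymes were examined in mouse haematopoietic stem cells (HSCs), the cells that maintain all blood lineages, after loss of Mettl3, the enzyme that places m6A marks on messenger RNA. The genes were chosen by name from the deposited expression table: all glutathione transferases of the alpha, mu, pi, theta, omega, kappa, zeta and microsomal classes, all cytosolic sulfotransferases, all aldehyde dehydrogenases other than the Aldh1a genes, and Gclc, Gclm, Gsr, Nqo1, Nqo2, Ephx1, Cyp1b1, Cyp4f13 and Cyp4f18. That gave 67 of the 23038 genes in the table. The choice was made with the mutant and control levels of these same genes known, so the differences below are a description and carry no test.

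The mutants were Mx1-cre; Mettl3fl/fl mice (4 libraries) and the controls were Cre-negative littermates (3 libraries), adult and of the C57BL/6 strain. Whether the controls carry floxed alleles is not stated in the labels. Both groups received 5 intraperitoneal doses of pIpC, 10 µg each, an RNA mimic that turns on the Mx1 promoter by way of interferon, and marrow was taken from the hindlimbs 10 days after the last dose. Each library was made by Smart-seq2, a full-length cDNA method for few cells, from 150 cells that were negative for lineage markers and CD48 and positive for Sca1, cKit and CD150. Mx1 is induced by interferon in other blood cells and other organs too, and since the controls lack Cre, the presence of Cre and the loss of Mettl3 cannot be told apart.

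The deposited values are RPKM, reads per kilobase of gene, scaled to library size, with 1 value per gene for each group and none for a single animal. No spread between animals can be given, and no difference below has a replicate check. Differences are given as log2((mutant + 1)/(control + 1)), on which low genes appear closer together than their plain ratio. Genes are called apart at 2-fold on that scale. Library sizes read from the values were 25.7, 26.9, 27.2 and 37.7 M reads in mutants and 19.6, 24.3 and 31.1 M reads in controls (M, megareads). Mettl3 itself stood at 9.60 RPKM in mutants and 49.8 RPKM in controls, 19.3% of the control level. All 14 HSC marker genes had at least 1 RPKM in a group, among them Procr at 46.0 RPKM in mutants and 53.3 RPKM in controls. Of 10 genes that the sort selects against, 5 had no reads and the highest, Cd48, stood at 4.04 RPKM in mutants and 5.33 RPKM in controls.

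Detoxification is commonly described in phases. Cytochromes P450, quinone reductases, epoxide hydrolases and aldehyde dehydrogenases oxidise, reduce or hydrolyse reactive compounds, and glutathione transferases and sulfotransferases then attach glutathione or sulfate to them. Glutathione is made by glutamate-cysteine ligase (Gclc and Gclm) followed by glutathione synthetase, and is returned to its reduced form by glutathione reductase (Gsr). Many of these genes are known targets of NRF2, the transcription factor released from KEAP1 under oxidative stress, or of the aryl hydrocarbon receptor AHR. In mouse HSCs, aldehyde removal by Aldh2 is known to protect the genome.

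The promoters below are shown because their genes include those farthest apart at 10 RPKM or more. Sult1a1 and Nqo1 stood lower in mutants, and Aldh6a1 stood higher. Gclc, the gene farthest apart on the higher side, is named only. Gclm and Gstm5 were added after their values were seen, because Gclm is the most abundant of Gclc, Gclm and Gsr and Gstm5 the most abundant mu-class transferase, and each window holds both motifs searched. Each sequence runs from 250 bases before to 50 bases after an annotated start, as given by RefSeq (GRCm38.p6, which mm10 also denotes). Capitals mark TGACNNNGC, the core of the antioxidant response element to which NRF2 binds, and GCGTG, the core of the xenobiotic response element to which AHR binds, searched on both strands. They lie at chr7:126676369-126676668 (minus strand) for Sult1a1, chr8:107403156-107403455 (minus strand) for Nqo1, chr12:84450975-84451274 (minus strand) for Aldh6a1, chr3:122245307-122245606 (plus strand) for Gclm and chr3:107895604-107895903 (plus strand) for Gstm5.
Sult1a1: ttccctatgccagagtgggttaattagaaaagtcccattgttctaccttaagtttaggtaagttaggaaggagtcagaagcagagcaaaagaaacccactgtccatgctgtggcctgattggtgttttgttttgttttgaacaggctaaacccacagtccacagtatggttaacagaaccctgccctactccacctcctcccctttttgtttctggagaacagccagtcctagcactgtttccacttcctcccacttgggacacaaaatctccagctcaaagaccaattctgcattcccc
Nqo1: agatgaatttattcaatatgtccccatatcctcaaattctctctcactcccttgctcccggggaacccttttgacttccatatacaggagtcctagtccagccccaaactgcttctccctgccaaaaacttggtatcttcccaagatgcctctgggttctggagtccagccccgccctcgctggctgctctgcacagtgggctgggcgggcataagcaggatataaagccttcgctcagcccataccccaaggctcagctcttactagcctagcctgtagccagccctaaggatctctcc
Aldh6a1: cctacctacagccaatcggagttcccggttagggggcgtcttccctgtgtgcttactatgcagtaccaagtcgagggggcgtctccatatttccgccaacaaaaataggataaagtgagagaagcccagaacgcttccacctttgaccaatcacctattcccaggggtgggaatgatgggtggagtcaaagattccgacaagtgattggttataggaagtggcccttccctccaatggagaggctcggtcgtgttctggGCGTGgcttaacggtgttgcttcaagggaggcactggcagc
Gclm: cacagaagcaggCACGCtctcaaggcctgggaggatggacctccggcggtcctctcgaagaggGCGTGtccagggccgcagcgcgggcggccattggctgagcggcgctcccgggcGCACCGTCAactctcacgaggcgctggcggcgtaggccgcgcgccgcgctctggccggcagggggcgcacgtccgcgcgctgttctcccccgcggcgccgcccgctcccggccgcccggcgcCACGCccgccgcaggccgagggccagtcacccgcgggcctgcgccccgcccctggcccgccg
Gstm5: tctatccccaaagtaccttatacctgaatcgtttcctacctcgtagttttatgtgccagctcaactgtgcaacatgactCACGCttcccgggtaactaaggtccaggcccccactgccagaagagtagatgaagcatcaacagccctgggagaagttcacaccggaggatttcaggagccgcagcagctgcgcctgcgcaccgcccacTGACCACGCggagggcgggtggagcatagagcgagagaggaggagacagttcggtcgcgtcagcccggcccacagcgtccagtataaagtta

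Neither motif was found in the Sult1a1 and Nqo1 windows, and bases outside the windows were not searched. The Sult1a1 window lies inside the gene, whose span on the minus strand begins at 126690443, and no window at that end was searched. Aldh6a1 held GCGTG once, just after the start shown. The window at its second annotated start, chr12:84448268-84448567, held neither. Gclm held the antioxidant core on the other strand at base -134 and GCGTG 3 times. In Gstm5 the antioxidant core at base -42 overlapped a GCGTG on the other strand at base -38, and another GCGTG began at base -171. Of the 67 genes, 54 had a promoter in the table, with 67 promoters between them. The antioxidant core was in 7 of these (10.4%), against 12.4% of all 32851 promoters, and GCGTG was in 20 (29.9%), against 32.4%. Among genes with at least 10 RPKM the antioxidant core was in 5 of 34 promoters (14.7%), against 14.9% of 6745, and GCGTG was in 12 (35.3%), against 52.6%. A match of these letters is a description and not a binding site.

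Reads were present for 46 of the 67 genes, while 21 had none in either group. Among the 46, 31 stood lower and 15 higher in mutants, with a median log2 difference of -0.33. Over all 14539 genes with reads, 6890 stood lower and 7649 higher, with a median of 0.02. At 2-fold, 6 of the 46 were lower in mutants (Sult1a1, Sult5a1, Gstt4, Aldh3a1, Gstm6 and Nqo1) and 2 were higher (Gsto2 and Aldh1b1), where 3.47% of all genes with reads were that much lower and 3.67% that much higher. Because the genes were chosen with these levels known, nothing is read from these shares. In bulk RNA, fewer cells of a type and less RNA per cell cannot be told apart.

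Of the 32 genes with at least 10 RPKM in a group, 22 stood lower and 10 higher in mutants, again with a median of -0.33, and over all 6607 genes at that level the median was 0.03. At 2-fold, 2 of the 32 were lower (Sult1a1 and Nqo1) and 0 were higher, against 2.47% lower and 3.36% higher of the 6607. The count of 0 rests on Gclc, which passed 2-fold when both columns were scaled to the same sum (log2 difference 1.01) and with a pseudocount of 0.1 RPKM (1.10) or none (1.11). The 67 genes together summed to 1882 RPKM in mutants and 2329 RPKM in controls, 0.377% of the mutant column and 0.462% of the control column. The net difference was -446 RPKM. Sult1a1 made up 29.2% of it and Gstm5 28.4%, and without these the sum was 1723 RPKM in mutants and 1913 RPKM in controls.

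**Figure D1:**
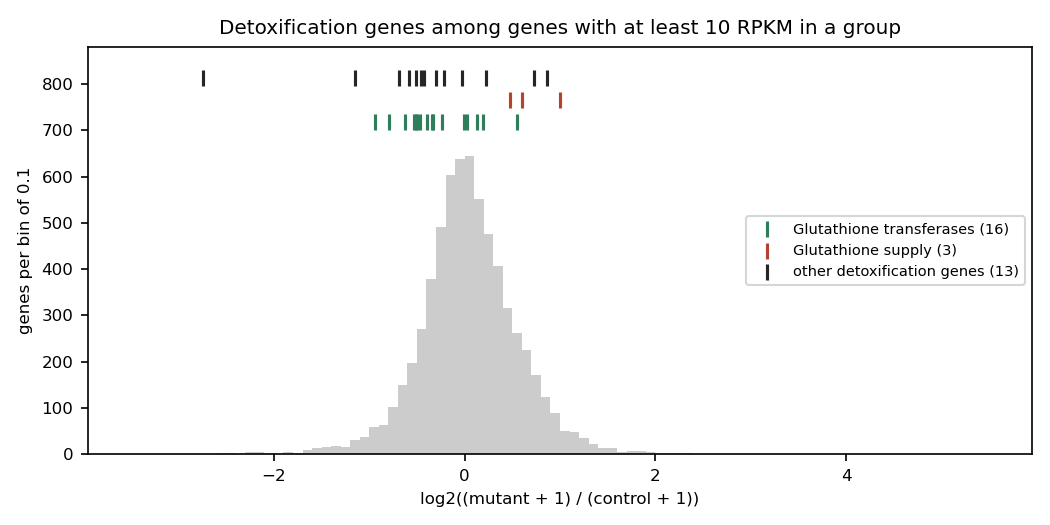
Histogram of log2((mutant + 1)/(control + 1)) for the 6607 genes with at least 10 RPKM in a group (y axis, genes per bin of 0.1), with ticks above for 16 glutathione transferases, 3 glutathione supply genes and 13 other detoxification genes. The transferase ticks lie mostly left of 0, the 3 supply ticks lie right of it, and Sult1a1 is the tick farthest left, at -2.74.

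Gclc, Gclm and Gsr, the members that supply reduced glutathione, stood higher in mutants, while glutathione synthetase, which is outside the chosen set, did not: Gss stood at 26.1 RPKM in mutants and 27.3 RPKM in controls. Gclm, the modifier subunit of glutamate-cysteine ligase, stood at 173 RPKM in mutants and 114 RPKM in controls. Gclc, its catalytic subunit and the step that limits glutathione synthesis, stood at 13.7 RPKM in mutants and 6.34 RPKM in controls, a ratio of 2.15 that just missed the 2-fold line once 1 RPKM was added (log2 difference 0.998). Gsr stood at 84.6 RPKM in mutants and 60.4 RPKM in controls. Together Gclc, Gclm and Gsr summed to 271 RPKM in mutants and 180 RPKM in controls, 151% of the control level.

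The glutathione transferases, which use that glutathione, stood mostly lower in mutants. Of 24 genes, 21 had reads, and 16 of these were lower and 5 higher, with a median log2 difference of -0.34. Their summed level was 1096 RPKM in mutants and 1410 RPKM in controls. Only the alpha-class genes Gsta1, Gsta2 and Gsta3 had no reads, and Gsta1 shares 80.6% of its 100-base transcript windows with another gene, so its value is uncertain.

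**Figure D2:**
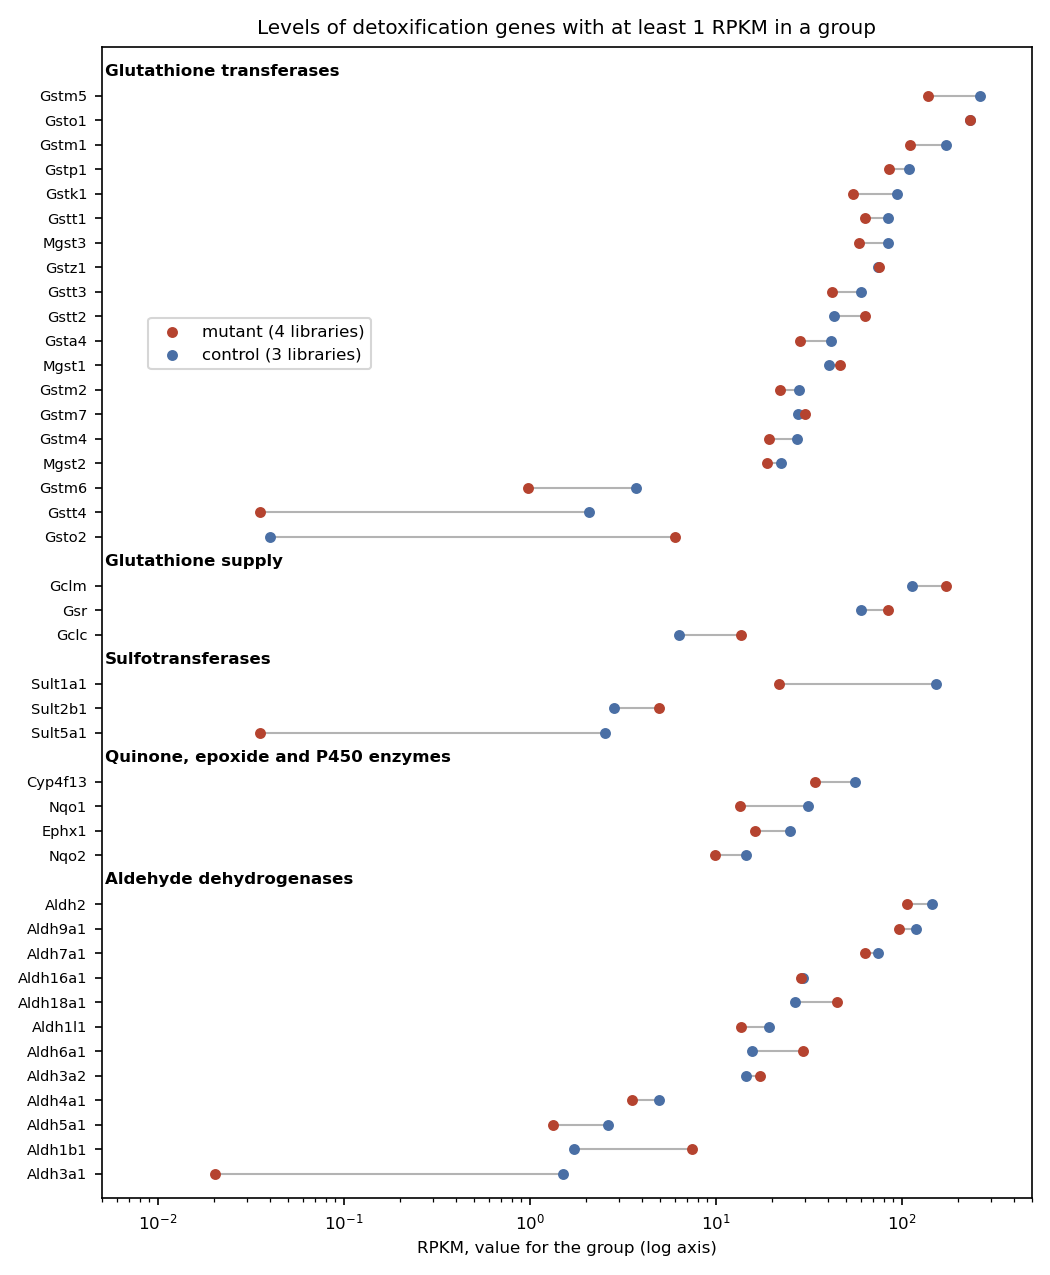
RPKM of the 41 detoxification genes with at least 1 RPKM in a group (log axis), 1 row per gene, with the mutant value in red and the control value in blue. Red lies left of blue in most transferase rows and right of it in the 3 glutathione supply rows. Sult1a1 has the widest gap among the genes with at least 10 RPKM.

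The mu class was the most abundant and summed to 321 RPKM in mutants, 61.5% of the 522 RPKM in controls. Mu-class enzymes conjugate glutathione to electrophiles such as epoxides and quinones. Gstm5 stood at 137.5 RPKM in mutants and 264 RPKM in controls, a log2 difference of -0.94. Gstm1 stood at 111 RPKM in mutants and 171 RPKM in controls. These genes were the main part of the class in both groups. Gstm2 stood at 22.1 RPKM in mutants and 28.0 RPKM in controls. Gstm4 stood at 19.4 RPKM in mutants and 27.2 RPKM in controls. Gstm6 had a low level and was apart, at 0.982 RPKM in mutants and 3.72 RPKM in controls (log2 difference -1.25). Gstm7 went the other way, at 30.2 RPKM in mutants and 27.6 RPKM in controls. Gstm3 was near the limit of detection, with 0 reads in mutants and 8 in controls, 6 in one library and 2 in another.

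The 7 mu-class genes lie within 149 kb on chromosome 3 (107895854 to 108045179, GRCm38.p6), in the order Gstm5, Gstm7, Gstm6, Gstm3, Gstm2, Gstm1, Gstm4. Gstm7, the single gene of the cluster that was higher in mutants, sits between Gstm5 and Gstm6, which stood lower. The 4 theta-class genes lie within 63.3 kb on chromosome 10 (75774117 to 75837419) in the order Gstt3, Gstt1, Gstt4, Gstt2, and the last of them was the single gene that was higher. Neighbouring genes of one family thus differed in direction in both clusters, though Gstm7 was nearly equal between the groups (log2 difference 0.13).

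**Figure D3:**
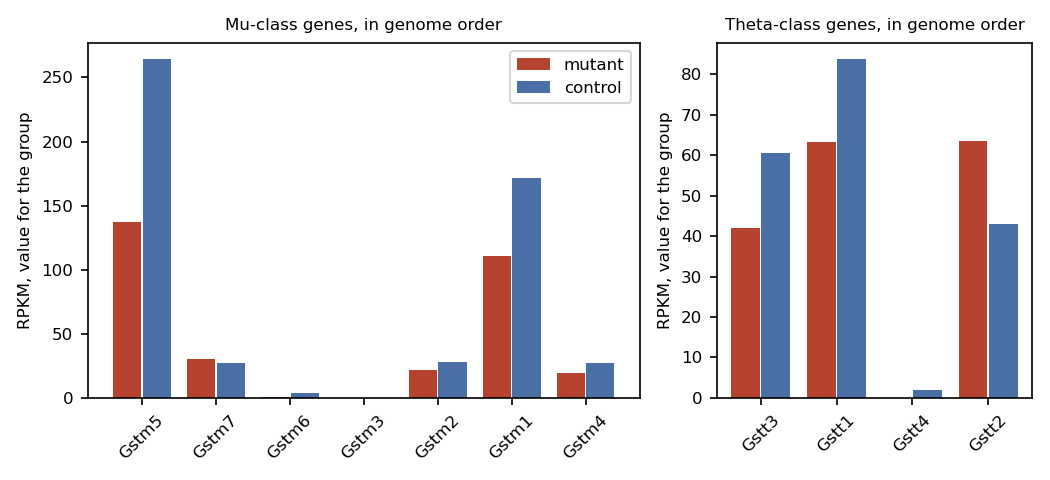
RPKM of the mu-class (left panel) and theta-class (right panel) genes in genome order, with the mutant bar (red) left of the control bar (blue) for each gene. Gstm5 shows the widest gap, 137.5 against 264 RPKM, while Gstm7 and Gstt2 are the genes whose mutant bar is the taller.

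Theta-class enzymes act on small halogenated compounds and on hydroperoxides. Gstt1 stood at 63.2 RPKM in mutants and 83.7 RPKM in controls, and Gstt3 at 42.03 RPKM in mutants and 60.5 RPKM in controls. Gstt2 stood at 63.5 RPKM in mutants and 42.9 RPKM in controls, the largest log2 difference above 0 (0.55) among the transferases with at least 10 RPKM. Gstt4 stood at 0.0353 RPKM in mutants, a value read as no reads, and at 2.08 RPKM in controls, a log2 difference of -1.57. At the same gene length no combination of whole reads gave the control value within rounding, so the absence of reads is uncertain. The class sum, 169 RPKM in mutants and 189 RPKM in controls, differed less than its members did.

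The omega class held the most abundant transferase of the mutants. Gsto1, which reduces dehydroascorbate and removes glutathione from proteins, stood at 232.1 RPKM in mutants and 232.8 RPKM in controls. Its neighbour on chromosome 19, Gsto2, stood at 6.01 RPKM in mutants and 0.0399 RPKM in controls, where the value corresponds to 2 reads in a single library. Gsto2 had the largest log2 difference of the 46 genes with reads, 2.75, from a low level. How many of the 4 mutant libraries carry it is not resolved by the pooled value.

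Among the remaining classes, Gstk1, the kappa-class enzyme of mitochondria and peroxisomes, stood at 54.4 RPKM in mutants and 94.6 RPKM in controls (log2 difference -0.79). Gsta4, which conjugates the lipid peroxidation product 4-hydroxynonenal, stood at 28.3 RPKM in mutants and 41.5 RPKM in controls. Gstp1 stood at 85.7 RPKM in mutants and 109 RPKM in controls. It is the main pi-class enzyme and shares 25.1% of its transcript windows with Gstp2, which had 3 reads in 1 mutant library and 3 reads in 1 control library. Gstz1, which acts in tyrosine breakdown, stood at 75.3 RPKM in mutants and 74.0 RPKM in controls. The membrane-bound Mgst3 stood at 59.0 RPKM in mutants and 83.6 RPKM in controls. Mgst2 stood at 18.8 RPKM in mutants and 22.4 RPKM in controls, and Mgst1 at 46.4 RPKM in mutants and 40.6 RPKM in controls. The 3 microsomal enzymes thus did not share a direction.

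Among the sulfotransferases a single gene carried nearly all of the level. Sult1a1, a phenol sulfotransferase (chromosome 7, 126672865 to 126690443), stood at 21.8 RPKM in mutants and 152 RPKM in controls, 6.96-fold lower. With a log2 difference of -2.74 it ranked 3rd from the lowest among the 6607 genes with at least 10 RPKM. It shares 1.75% of its transcript windows with other genes. The family sum was 28.0 RPKM in mutants and 159 RPKM in controls, 17.6% of the control level.

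The other sulfotransferases were low or without reads. Sult5a1 stood at 0.0353 RPKM in mutants and 2.52 RPKM in controls. The mutant value corresponds to 1 read in a single library. At the same gene length no combination of whole reads gave the control value within rounding, so that read count is uncertain. Sult2b1, which sulfates cholesterol, stood at 4.96 RPKM in mutants and 2.84 RPKM in controls. Sult6b1 stood at 0.342 RPKM in mutants and 0.843 RPKM in controls. Sult4a1, best known from brain, stood at 0.413 RPKM in mutants and had no reads in controls; its mutant value equals 103 reads of a single library, though 6 combinations of whole reads lie within rounding. The remaining 13 of 18 genes had no reads, among them all 7 Sult2a genes, which cluster on chromosome 7 and are best known from liver. For a gene of 1 kb, 3 reads over the summed depth of a group come to 0.0255 RPKM in mutants and 0.0400 RPKM in controls. That limit covers counting error only and leaves out the constant held in every deposited value. With this constant, a gene of 1 kb without reads has a value of 0.0349 RPKM in mutants and 0.0414 RPKM in controls. The deposited values therefore cannot be set against the limit directly.

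**Figure D4:**
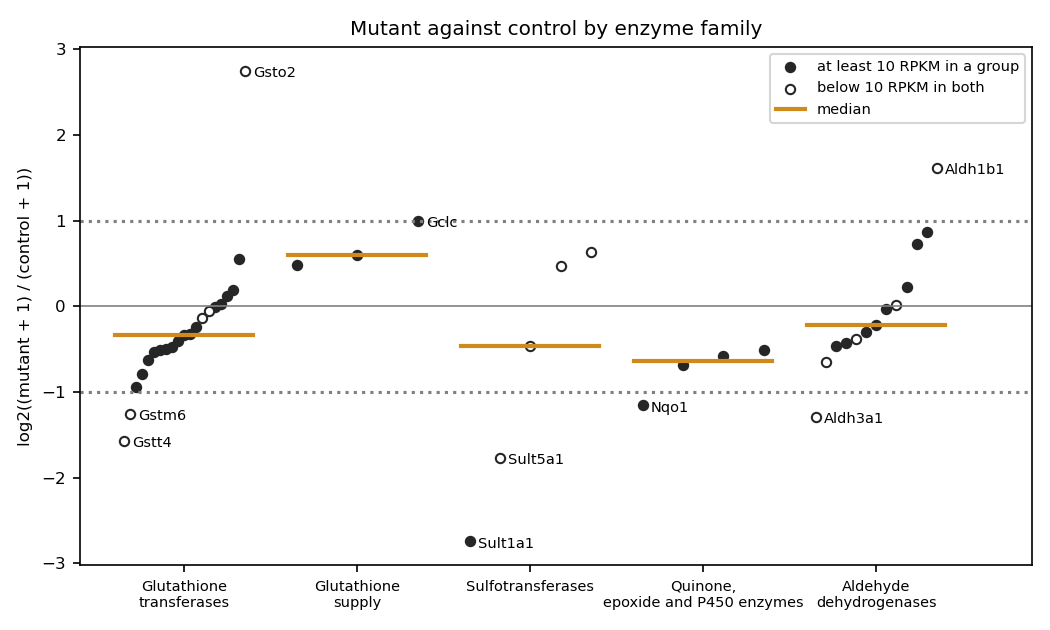
log2((mutant + 1)/(control + 1)) of the 46 genes with reads, by enzyme family, ordered by value within each family. Filled points have at least 10 RPKM in a group, open points less, orange bars are medians and dotted lines mark 2-fold. Sult1a1 and Nqo1 are the filled points below the lower line, and Gclc lies at the upper one.

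The quinone, epoxide and P450 enzymes with reads were all lower in mutants. Nqo1, the NAD(P)H quinone reductase and a classic NRF2 target, stood at 13.4 RPKM in mutants and 31.1 RPKM in controls (log2 difference -1.15). Nqo2, which uses another cofactor, stood at 9.92 RPKM in mutants and 14.5 RPKM in controls. It shares 16.3% of its transcript windows with another gene. Ephx1, the microsomal epoxide hydrolase, stood at 16.3 RPKM in mutants and 25.0 RPKM in controls. Cyp4f13, of a P450 family that hydroxylates fatty acids and eicosanoids, stood at 34.2 RPKM in mutants and 55.7 RPKM in controls. Cyp1b1 and Cyp4f18 had no reads.

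The aldehyde dehydrogenases were mixed. Of 16 genes, 13 had reads, with 8 lower and 5 higher in mutants and a median log2 difference of -0.22. Aldh2, the mitochondrial enzyme for acetaldehyde, stood at 107 RPKM in mutants and 144 RPKM in controls. Aldh9a1, which acts in carnitine synthesis, stood at 96.4 RPKM in mutants and 119 RPKM in controls. Aldh7a1, an enzyme of lysine breakdown, stood at 63.6 RPKM in mutants and 74.1 RPKM in controls. The 3 most abundant genes were thus all lower, by less than 2-fold. Aldh1l1, which oxidises 10-formyltetrahydrofolate, stood at 13.7 RPKM in mutants and 19.2 RPKM in controls. Aldh16a1 stood at 28.8 RPKM in mutants and 29.4 RPKM in controls. Aldh3a2, the fatty aldehyde dehydrogenase, stood at 17.3 RPKM in mutants and 14.6 RPKM in controls.

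The enzymes of amino acid metabolism in this family did not go one way. Aldh18a1, which makes the proline precursor pyrroline-5-carboxylate, stood at 44.7 RPKM in mutants and 26.6 RPKM in controls. Aldh4a1, which consumes pyrroline-5-carboxylate, stood at 3.55 RPKM in mutants and 4.93 RPKM in controls. The RNA of Aldh18a1 and Aldh4a1 thus differed in opposite directions, though Aldh4a1 is low and shares 27.5% of its windows with another gene. Aldh6a1, of valine and pyrimidine breakdown, stood at 29.4 RPKM in mutants and 15.7 RPKM in controls, with 13.4% of its windows shared. Aldh5a1, which oxidises succinate semialdehyde, stood at 1.33 RPKM in mutants and 2.64 RPKM in controls.

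Of the low genes, Aldh1b1, a mitochondrial relative of Aldh2, stood at 7.39 RPKM in mutants and 1.73 RPKM in controls (log2 difference 1.62). Aldh3a1, best known from the cornea, had no reads in mutants and stood at 1.501 RPKM in controls. That control value equals 186 reads of a single library, and 2 combinations of whole reads lie within rounding, so the value does not settle how many control libraries carry it. Aldh3b2 had 4 reads in 1 mutant library and none in controls. Aldh1l2, Aldh3b1 and Aldh8a1 had no reads.

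Genes of related pathways were set beside these, from lists drawn up with earlier results known. The NRF2 pathway list was balanced: of 27 genes, 14 stood higher and 13 lower in mutants, with a median of 0.00. It leaves out the detoxification genes above, such as Nqo1, Gclc and Gclm, and counts Nfe2l2 and its regulators beside targets. Nfe2l2, which encodes NRF2, stood at 85.5 RPKM in mutants and 60.3 RPKM in controls, and Keap1, its inhibitor, at 18.5 RPKM in both. The targets farthest apart went both ways. Hmox1, heme oxygenase, stood at 10.4 RPKM in mutants and 2.03 RPKM in controls, and Txnrd1, thioredoxin reductase, at 48.7 RPKM in mutants and 27.8 RPKM in controls. Osgin1 stood at 9.23 RPKM in mutants and 20.1 RPKM in controls, and Mafk, a small MAF partner of NRF2, at 1.32 RPKM in mutants and 3.73 RPKM in controls.

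The AHR pathway had 8 of 11 genes with reads, 4 higher and 4 lower in mutants. Ahr was low, at 0.227 RPKM in mutants and 0.724 RPKM in controls, while its partner Arnt stood at 3.40 RPKM in mutants and 3.25 RPKM in controls. Tiparp, an AHR target, stood at 8.10 RPKM in mutants and 4.48 RPKM in controls. The classic targets Cyp1a1 and Cyp1a2 had no reads.

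Other genes of glutathione synthesis, use and breakdown were balanced too, with 15 higher and 14 lower of 29 with reads. Gpx3, a secreted glutathione peroxidase, stood at 5.10 RPKM in mutants and 17.3 RPKM in controls. Hpgds, a sigma-class glutathione transferase that makes prostaglandin D, stood at 0.0810 RPKM in mutants and 2.24 RPKM in controls, and Ptges at 0.658 RPKM in mutants and 3.30 RPKM in controls. Chac1, which degrades glutathione, stood at 3.37 RPKM in mutants and 0.587 RPKM in controls.

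The list for sulfate activation and sulfate ester turnover holds the enzymes that make the sulfate donor of sulfotransferases, sulfate and donor carriers, protein tyrosine sulfotransferases, sulfatases and phosphatases. The donor itself is made by Papss1, at 42.7 RPKM in mutants and 39.0 RPKM in controls, and by Papss2. Papss2 stood at 0.163 RPKM in mutants and 0.0110 RPKM in controls, where the value is read as no reads. Neither gene was apart, though at the level of Papss2 the added 1 RPKM keeps any gap below 2-fold. Of all 13 genes, 12 stood higher in mutants and 1 lower, with a median log2 difference of 0.33, and the sum was 509 RPKM in mutants and 327 RPKM in controls. Tpst2, which sulfates tyrosines of proteins, stood at 240 RPKM in mutants and 123 RPKM in controls and made up much of that sum. Slc26a11 stood at 2.74 RPKM in mutants and 0.330 RPKM in controls. The sulfate carrier Slc26a2 stood at 3.32 RPKM in mutants and 1.47 RPKM in controls, and Suox, sulfite oxidase, at 7.64 RPKM in mutants and 3.80 RPKM in controls. No value here shows whether sulfate use differed.

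Of the aldehyde, ketone and alcohol reductases and dehydrogenases, 16 of 22 had reads, with 10 lower and 6 higher in mutants. Aldh1a1, which makes retinoic acid and is used as a stem cell marker, stood at 34.7 RPKM in mutants and 108 RPKM in controls. Adh1, an alcohol dehydrogenase, stood at 0.0261 RPKM in mutants, a value read as no reads, and at 2.89 RPKM in controls. On the other side, Akr1c12 stood at 18.1 RPKM in mutants and 8.92 RPKM in controls, and Cbr4 at 14.8 RPKM in mutants and 7.37 RPKM in controls.

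**Figure D5:**
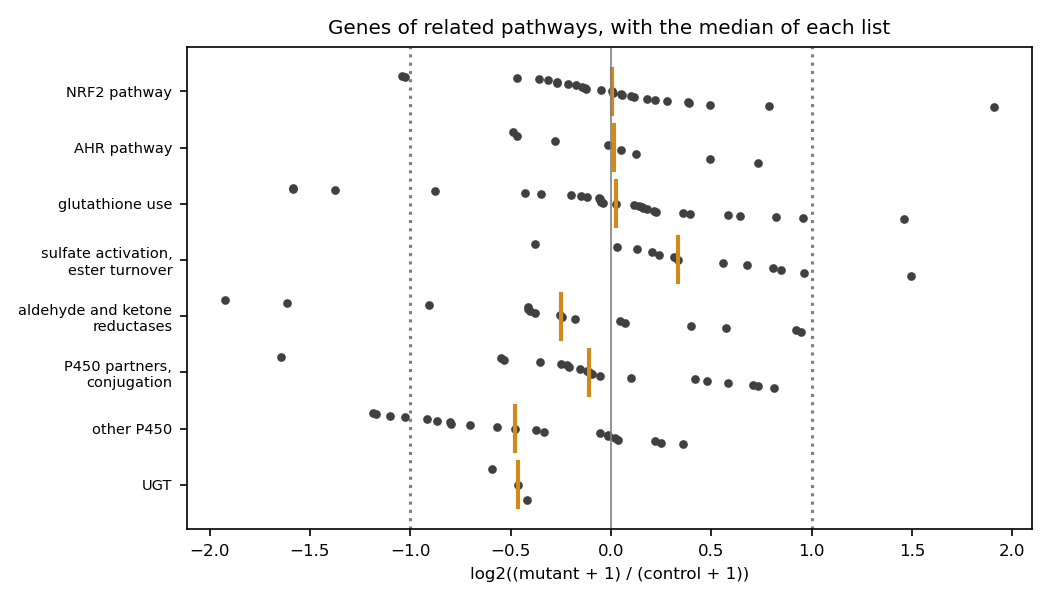
log2((mutant + 1)/(control + 1)) of genes with reads in 8 related lists, 1 point per gene, with the median of each list as an orange bar and dotted lines at 2-fold. The list for sulfate activation and ester turnover has the highest median, 0.33, and the other P450 list the lowest, -0.48.

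Markers of other cells differed between the groups too, in both directions within most lists. Neutrophil markers, 6 of 10 with reads (4 lower and 2 higher in mutants), summed to 7.38 RPKM in mutants and 14.8 RPKM in controls, with Camp at 0.562 RPKM in mutants and 6.37 RPKM in controls and Mpo at 1.43 RPKM in mutants and 0.0492 RPKM in controls. T and natural killer cell markers, 4 of 10 with reads (3 lower and 1 higher), summed to 64.4 RPKM in mutants and 127.5 RPKM in controls, nearly all from Nkg7, with Cd3e at no reads. Macrophage markers, 9 of 13 with reads, summed to 294 RPKM in mutants and 409 RPKM in controls, nearly all from Lyz2, though 7 of the 9 stood higher in mutants and 2 lower, with a median log2 difference of 0.13, and Csf1r and Emr1 had no reads. The sum and the count thus ran opposite ways in the macrophage list.

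Erythroid markers did the same. With 7 of 10 having reads, they summed to 1085 RPKM in mutants and 1597 RPKM in controls, of which Car2 made up 1021 RPKM in mutants and 1560 RPKM in controls, while 4 stood higher and 3 lower, with a median of 0.35. Hbb-b1 stood at 7.79 RPKM in mutants and 2.30 RPKM in controls. Megakaryocyte markers, 8 of 8 with reads (6 higher and 2 lower), summed to 285 RPKM in mutants and 233 RPKM in controls. Within that list Selp stood at 69.2 RPKM in mutants and 20.05 RPKM in controls, and Clec1b at 0.297 RPKM in mutants and 6.35 RPKM in controls. Stromal and endothelial markers, 7 of 10 with reads (4 higher and 3 lower), summed to 71.6 RPKM in mutants and 58.1 RPKM in controls, with Pecam1 at 50.1 RPKM in mutants and 22.0 RPKM in controls and Emcn at 16.6 RPKM in mutants and 33.9 RPKM in controls. On the log2 scale the widest gaps of the megakaryocyte list, those of Clec1b and Selp, thus went opposite ways. In the stromal and endothelial list the widest were those of Pecam1 and Sparc, both higher in mutants, with Emcn next on the lower side. Sparc stood at 3.90 RPKM in mutants and 1.34 RPKM in controls.

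The HSC markers, 7 higher and 7 lower in mutants, summed to 704 RPKM in mutants and 920 RPKM in controls. B and plasma cell markers, 4 of 7 with reads, summed to 139 RPKM in mutants and 137 RPKM in controls, of which Cd79b made up 133 and 132 RPKM. Mast cell and basophil markers, 2 of 9 with reads, summed to 31.1 RPKM in mutants and 38.7 RPKM in controls, of which Gata1 made up 28.6 and 32.4 RPKM. Hepatocyte markers, 3 of 8 with reads, summed to 73.9 RPKM in mutants and 77.5 RPKM in controls, of which Trf made up 72.6 and 75.3 RPKM. Alb had no reads. The part of these cells in the results above was not tested.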

How the data were processed

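RNA was measured in 7 libraries, 4 mutant and 3 control. The deposited RPKM come as 1 column per group, per the file headers, so libraries were pooled by the authors. Picard, edgeR and the mm10 build are listed in the submitters' processing notes. The sources used here do not give their roles, nor the aligner, annotation and strand handling. No test across libraries could be run.

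A fixed mutant/control ratio of 0.841 held in 8499 genes (36.9%), each value being a group constant over a whole gene length. These were read as genes without reads, and all values as means over libraries of reads plus 1 over length and library size. Steps of 1 read were picked from the commonest small excesses over that constant, as many as there are libraries, with a sum within 0.0005 of the offset. They give the library sizes, which cannot be tied to animals. The search was tested on simulated data made with the same formula, which checks the search and not this reading of the values.

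The members and lists were chosen with earlier results of these data known. Differences use a pseudocount of 1 RPKM, and genes are apart at 2-fold. Every member with at least 1 RPKM in a group was named, with others above the offset if apart, and 4 genes farthest apart per related list plus the NRF2 and AHR regulators; a gene that this rule names is not reported here. Other low members are named for completeness, after their values were seen. Shared windows are 100-base stretches of GENCODE M21 transcripts found in another gene. All 67 members matched RefSeq by gene identifier. Other pseudocounts, scalings and thresholds were tried. Python 3.11.15, pandas 2.3.3, numpy 2.4.6 and matplotlib 3.10.9 were used.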

Additional observations from a re-analysis of the deposited data

How the results depend on the processing

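No paired analysis was possible because the deposited columns hold 1 value per group. Leaving out a replicate was not possible for the same reason, and dropping paralogues by protein identity was not run because no protein sequences were used here. Leaving out members whose value equals whole reads of a single library, Aldh3a1 among them, left 7 apart, 5 lower and 2 higher in mutants. The median was then -0.36. An alternative chosen after seeing the data left out members that share at least 10% of their transcript windows with another gene, and 8 genes were apart, with a median of -0.33. With a 1.5-fold threshold 18 members were apart in place of 8, 7 higher and 11 lower in mutants. With a pseudocount of 0.1 RPKM, and with none, 4 members were apart on the higher side in place of 2. With no pseudocount 8 were apart on the lower side in place of 6, and 12 in all in place of 8. Scaling both columns to the same sum put Gclc past 2-fold, which made 3 higher and 9 in all, and turned the sign of Gsto1, whose groups were nearly equal. Of the 41 named members, 4 moved over 1.5-fold with a pseudocount of 0.1 RPKM and 5 with none, and 0 did under either rescaling. Depth limits the low members most, since a few reads set their values.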

Other observations

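P450 genes outside the chosen set were mostly without reads: 21 of 99 had any, and 16 of these stood lower and 5 higher in mutants. Cyp20a1 was the most abundant, at 79.1 RPKM in mutants and 66.5 RPKM in controls. Cyp7b1, an oxysterol hydroxylase, stood at 8.34 RPKM in mutants and 20.2 RPKM in controls, and Cyp39a1, which hydroxylates an oxysterol, at 1.54 RPKM in mutants and 4.72 RPKM in controls. Cyp27a1, sterol 27-hydroxylase, stood at 1.70 RPKM in mutants and 4.79 RPKM in controls. Cyp46a1, cholesterol 24-hydroxylase, stood at 0.0152 RPKM in mutants, a value read as no reads, and at 1.07 RPKM in controls. These 4 genes, the farthest apart of the list, were all lower in mutants.

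Among P450 partners, hydrolases and other conjugating enzymes, 19 of 27 had reads, 12 lower and 7 higher in mutants. Xdh, xanthine dehydrogenase, stood at 1.12 RPKM in mutants and 5.63 RPKM in controls. Comtd1 stood at 55.2 RPKM in mutants and 31.0 RPKM in controls, and Tpmt, thiopurine methyltransferase, at 4.13 RPKM in mutants and 2.08 RPKM in controls. Maob, a monoamine oxidase, stood at 0.658 RPKM in mutants and 0.0172 RPKM in controls, where the value is read as no reads. UDP-glucuronosyltransferases were mostly without reads, and the 3 of 18 with any are all Ugt1a genes that share exons, so their values are uncertain. Ugt1a7c stood at 8.76 RPKM in mutants and 12.4 RPKM in controls, Ugt1a5 at 2.85 RPKM in mutants and 4.81 RPKM in controls, and Ugt1a6a at 2.20 RPKM in mutants and 3.28 RPKM in controls.

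The first 365 rows of the deposited table (1.58%) stand before rows sorted by gene identifier, and 5 of the 67 detoxification genes (7.46%) are among them: Sult1a1, Gsto2, Sult5a1, Aldh3a1 and Gstm5. The lowest fold either way in that block was 1.81, while 551 genes with at least 10 RPKM in later rows differed by at least as much, Nqo1 among them. The sources used here do not say what the order means.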
